A study of Rattus norvegicus with 2 samples.

Results

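RNA of desmosome and cornified envelope plaque genes was compared between the urine of sham-operated and obstructed rats. The members were chosen by name: Dsp, Jup, Pkp1, Pkp2, Pkp3, Dsg2, Dsc2, Perp, Ppl and Evpl, taken from the rows whose identifier is a rat NCBI gene ID. Of these 10 genes, 8 had a value among the 16484 gene IDs used, and all 8 had an FPKM (fragments per kilobase of transcript, scaled to library size) of at least 1 in either library. Dsp and Dsg2 were not analysed here.

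The urine came from Sprague Dawley rats labelled as postnatal day 56, or 8 weeks old, and it was taken from the ureter by catheter 2 weeks after surgery. The UUO library came from rats whose right ureter had been ligated (unilateral ureteral obstruction, a model of renal fibrosis), and the library labelled WT from rats that underwent the same surgery with no ligation. No genetic change is named for either group, and whether rats were pooled is not stated. Each group had 1 library. The differences therefore have no replicate check, no p-value is given, and every value describes these libraries alone. The condition names in the table, UrRf and Urc, were read as UUO and WT, and the directions rest on that reading.

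Desmosomes are spot-like junctions that fasten neighbouring epithelial cells together and anchor their keratin filaments. Desmosomal cadherins such as Dsg2 and Dsc2 cross the gap between cells. Inside the cell their tails bind the armadillo proteins plakoglobin (Jup) and the plakophilins (Pkp1 to Pkp3), which connect to the plakin Dsp and through it to keratin. Periplakin (Ppl) and envoplakin (Evpl) are plakins that join desmosomes to the cornified envelope, the protein shell that forms beneath the membrane of terminally differentiated squamous cells. Perp is a tetraspan membrane protein of desmosomes and a known target of the transcription factors p53 and p63. In the urinary tract these junctions are found in the urothelium and in tubule epithelium, whereas a true cornified envelope belongs to skin and similar squamous epithelia.

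The whole series was read through a few values. FPKM steps among assembled features gave a normalising total of 2116000 fragments in the WT and 2441000 in the UUO library, so that 1 fragment over 1000 usable bases of a transcript stood for an FPKM of 0.473 and 0.410. The 95% intervals below are exact Poisson intervals for 1000 such bases. They cover counting error only, since neither PCR copies nor differences between rats enter them, and they are wider than those of a longer transcript. Such intervals were computed for the members alone. The share of all gene IDs whose intervals lie apart is therefore not known, and intervals apart do not set a member off from other genes. Of the gene IDs, 51.3% were listed at 0 in WT and 27.2% in UUO urine. A listed 0 can be a failed estimate, because in both libraries 18 of 69 genes of ribosomal proteins, which all cells use, were listed at 0.

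The plaque genes were well represented in both libraries. In WT urine their FPKM summed to 384 with a median of 31.7, and in UUO urine to 294 with a median of 30.9. Over all gene IDs the median was 0 and 1.87. The members spanned the 56.6th to the 97.2nd percentile of gene IDs in WT and the 58.9th to the 98.4th percentile in UUO urine. Within the set, the highest level was 44.3 times the lowest in WT and 25.0 times in UUO urine.

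**Figure D1:**
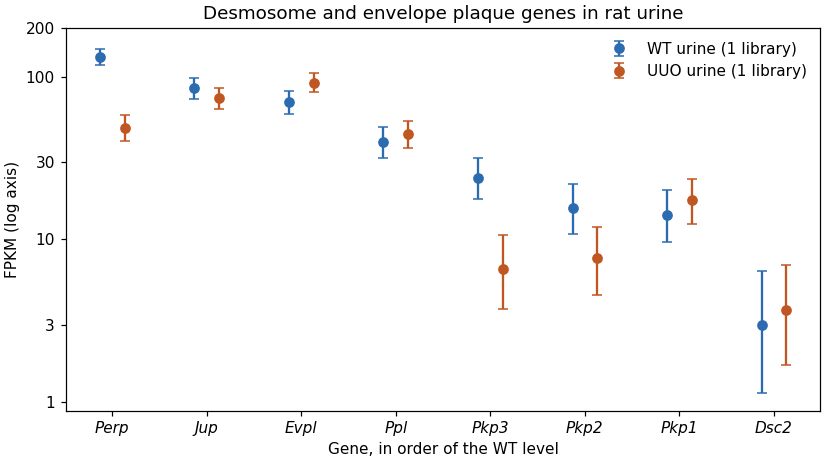
FPKM of the 8 plaque genes on a log axis, with 1 point per library (WT in blue, UUO in orange) and bars for the exact Poisson 95% interval over 1000 usable bases. The bars of Perp (FPKM of 132 in WT and 48.4 in UUO) and Pkp3 (24.0 and 6.56) do not overlap between the libraries. Those of the other 6 genes overlap. The share of all gene IDs with bars apart was not computed.

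Among the plakins, Evpl (gene ID 303687, rn5 chromosome 10, 104768139 to 104784690) had an FPKM of 70.0 in WT (95% interval 59.2 to 82.2) and 92.0 in UUO urine (80.4 to 105). Ppl (gene ID 302934, chromosome 10, 9411530 to 9457238) had 39.5 in WT (31.5 to 48.9) and 44.3 in UUO urine (36.4 to 53.5). The products of these genes are partners that form a heterodimer in the envelope scaffold. Both were somewhat higher in UUO urine, with log2(FPKM + 1) differences of 0.39 for Evpl and 0.16 for Ppl, and both pairs of intervals overlapped. The ratio of Evpl to Ppl, which no scaling of a library changes, was 1.77 in WT and 2.07 in UUO urine. Its change on the log2 scale was 0.23, with a counting interval from -0.28 to 0.74 that includes 0.

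Of the armadillo genes, Jup (gene ID 81679, chromosome 10, 88073759 to 88100705) was the most abundant, at an FPKM of 85.1 in WT (73.1 to 98.5) and 73.8 in UUO urine (63.4 to 85.4). Plakoglobin is shared by desmosomes and adherens junctions. Its log2 difference was -0.20 and its intervals overlapped.

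The plakophilins, which cluster cadherins and desmoplakin in the plaque, differed among themselves. Pkp1, the form typical of stratified epithelia (gene ID 304822, chromosome 13, 57753231 to 57800892), had an FPKM of 14.2 in WT (9.59 to 20.3) and 17.4 in UUO urine (12.5 to 23.4), a log2 difference of 0.27. Pkp2, the form of simple epithelia and heart (gene ID 287925, chromosome 11, 91965363 to 92031277), had 15.7 in WT (10.8 to 22.0) and 7.66 in UUO urine (4.59 to 12.0), a log2 difference of -0.95. Pkp3, which is found in most simple and stratified epithelia (gene ID 293619, chromosome 1, 220806127 to 220817136), had 24.0 in WT (17.8 to 31.5) and 6.56 in UUO urine (3.75 to 10.6). The intervals of Pkp3 were apart, and its FPKM was 3.65 times higher in WT urine, a log2 difference of -1.72.

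The order of the plakophilins was thus opposite in the libraries. In WT urine Pkp3 made up 44.5% of their summed FPKM, Pkp2 29.2% and Pkp1 26.4%. In UUO urine Pkp1 made up 55.0%, Pkp2 24.3% and Pkp3 20.8%. Pkp3 over Pkp1 was 1.69 in WT and 0.378 in UUO urine, a log2 change of -2.16 with a counting interval from -3.21 to -1.10. For Pkp2 over Pkp1 the ratio was 1.11 in WT and 0.441 in UUO urine, a log2 change of -1.33 (-2.38 to -0.27). Pkp3 over Pkp2 changed by -0.83 on the log2 scale, and its interval from -1.98 to 0.32 includes 0. In WT urine the intervals of all 3 levels overlapped, whereas in UUO urine that of Pkp1 lay above those of Pkp2 and Pkp3.

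Of the cadherins, Dsc2 (gene ID 291760, chromosome 18, 11625841 to 11658036) was the lowest of the 8 genes in both libraries. Desmocollin 2 is the widespread desmocollin of simple epithelia. Its FPKM was 2.99 in WT (1.13 to 6.38) and 3.69 in UUO urine (1.69 to 6.998), a log2 difference of 0.23. At about 6.33 and 8.997 fragments per 1000 usable bases, a difference of this size was not detectable at this depth, and the deposited table marks the gene as not tested. Jup exceeded Dsc2 by 28.5 times in WT and 20.0 times in UUO urine.

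Perp (gene ID 292949, chromosome 1, 15786755 to 15799207) was the most abundant plaque gene in WT urine, at an FPKM of 132 (117 to 149). In UUO urine it had an FPKM of 48.4 (40.1 to 58.0) and stood below Evpl and Jup. Its FPKM was 2.73 times higher in WT urine, the intervals were apart, and the log2 difference was -1.43. Relative to Jup, Perp was at 1.56 in WT and 0.656 in UUO urine, a log2 change of -1.25 with a counting interval from -1.68 to -0.82. Relative to Evpl it was at 1.89 and 0.526, a log2 change of -1.85 (-2.28 to -1.41).

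The bases before the transcription start of these genes are shown for Perp, the member with promoter sequence whose levels lay furthest apart, and for Jup and Ppl, each of which had similar levels in the WT and UUO library. The RefSeq promoter table (GRCr8 build, another build than that of the deposited coordinates) held 5 of the 8 genes, Dsc2, Jup, Perp, Pkp1 and Ppl. The windows are the 250 bases before the start, 5′ to 3′ on the strand of the gene: chr1:15361534-15361783, plus strand, for Perp, chr10:85827430-85827679, minus strand, for Jup and chr10:10957138-10957387, plus strand, for Ppl. Capitals mark matches, on either strand, to the GC box GGGCGG, the AP-1 motif TGANTCA, the E-box CAGGTG, the SMAD motif CAGACA and the TATA motif TATAAA. No matches overlapped in these windows.
Perp: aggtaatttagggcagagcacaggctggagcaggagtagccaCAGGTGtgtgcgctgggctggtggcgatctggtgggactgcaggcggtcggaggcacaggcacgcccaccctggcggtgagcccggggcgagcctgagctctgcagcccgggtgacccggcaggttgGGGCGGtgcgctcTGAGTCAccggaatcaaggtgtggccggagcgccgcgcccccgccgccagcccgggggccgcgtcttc
Jup: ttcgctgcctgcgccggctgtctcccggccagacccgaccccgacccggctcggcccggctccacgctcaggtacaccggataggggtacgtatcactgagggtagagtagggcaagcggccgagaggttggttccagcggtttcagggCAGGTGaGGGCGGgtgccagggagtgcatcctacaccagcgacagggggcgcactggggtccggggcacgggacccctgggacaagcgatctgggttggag
Ppl: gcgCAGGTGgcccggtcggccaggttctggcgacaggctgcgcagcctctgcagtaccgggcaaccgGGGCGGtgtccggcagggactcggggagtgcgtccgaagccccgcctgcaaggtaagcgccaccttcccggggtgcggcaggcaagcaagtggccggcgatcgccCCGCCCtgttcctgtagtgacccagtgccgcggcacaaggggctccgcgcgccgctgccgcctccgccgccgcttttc

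The windows of the 5 genes held 64.4% to 73.6% G and C, against a median of 51.2% over 33469 promoters. A GC box was found in 5 of 5 (30.5% of all promoters), an E-box in 4 of 5 (15.9%), a SMAD motif in 1 of 5 (17.2%), an AP-1 motif in 1 of 5 (6.34%) and a TATA motif in 0 of 5 (12.9%). The AP-1 match was that of Perp, whose first base lay at position -68, with -1 just before the start, and the SMAD match that of Pkp1. These are matches of letters, and occupancy by any factor was not measured.

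A change in the make-up of the set shows without any choice of scaling. Perp held 34.5% of the summed FPKM of the 8 genes in WT and 16.5% in UUO urine. Evpl held 18.2% and 31.3%, Jup 22.2% and 25.1%, and Ppl 10.3% and 15.1%. Pkp3 held 6.24% and 2.23% and Pkp2 4.09% and 2.61%, whereas Pkp1 held 3.70% and 5.91% and Dsc2 0.779% and 1.25%. Set against Jup, the plaque gene shared with adherens junctions, Evpl changed by 0.60 on the log2 scale (0.18 to 1.02) and Pkp3 by -1.66 (-2.53 to -0.80). The intervals of Ppl, Pkp1, Pkp2 and Dsc2 against Jup included 0.

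**Figure D2:**
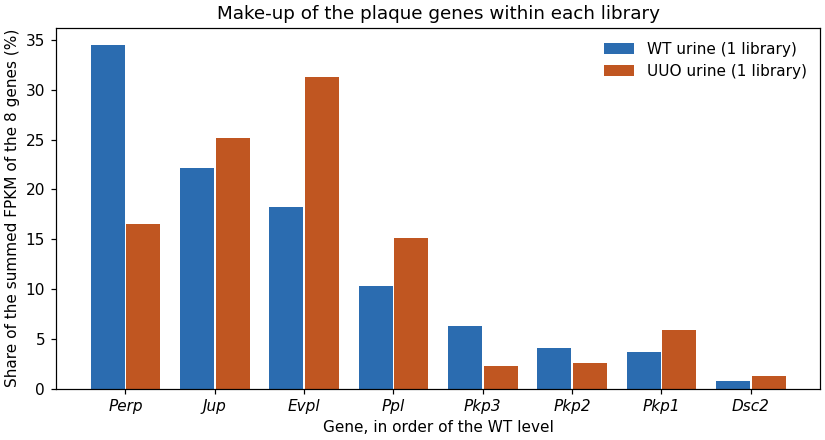
Share of each gene, in percent, in the summed FPKM of the 8 plaque genes, with bars for the WT (blue) and UUO (orange) library. Perp stands at 34.5% in WT and 16.5% in UUO urine, and Evpl at 18.2% and 31.3%. The shares of a library are parts of a fixed whole and do not vary independently.

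Counted by a 2-fold limit on the log2(FPKM + 1) scale, 2 of the 8 plaque genes (Pkp3 and Perp) were lower in UUO urine, 0 were higher and 6 lay within the limit. Over the 9853 gene IDs with an FPKM of at least 1 in either library, 36.5% were lower and 25.7% higher. The median log2 difference was -0.02 over the members and -0.51 over all these gene IDs, and 5 of the 8 members lay above the latter. The members that lay below it were Pkp3, Perp and Pkp2. All 8 members also reached an FPKM of 1 in both libraries, a limit set once values were known. By that limit 506 of 7218 gene IDs were higher and 3089 lower, with a median of -0.81.

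These counts moved with the scaling of the UUO library. After rescaling by the median ratio of genes above 0 in both libraries, 4 members (Evpl, Pkp1, Ppl and Dsc2) were at least 2-fold higher and 0 were lower, against 40.7% higher and 14.9% lower among all gene IDs that passed. Of the gene IDs past the limit, 41.3% were higher as deposited, 62.7% after rescaling to equal sums and 73.2% by the median ratio. The member median was 0.58 after equal sums and 0.87 by the median ratio, while the median of all gene IDs was 0.15 and 0.51. Relative to the median of all gene IDs the members stood at 0.49 as deposited, 0.43 after equal sums and 0.35 by the median ratio. They stood at -0.02, with 4 of 8 above the median of all gene IDs, when the 75th percentile of features above 0 in either library was matched. Pkp3, Perp and Pkp2 were below 0 and Evpl, Pkp1, Dsc2 and Ppl above 0 as deposited and in these first 2 scalings, whereas Jup turned from -0.20 to 0.42 and 0.72.

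**Figure D3:**
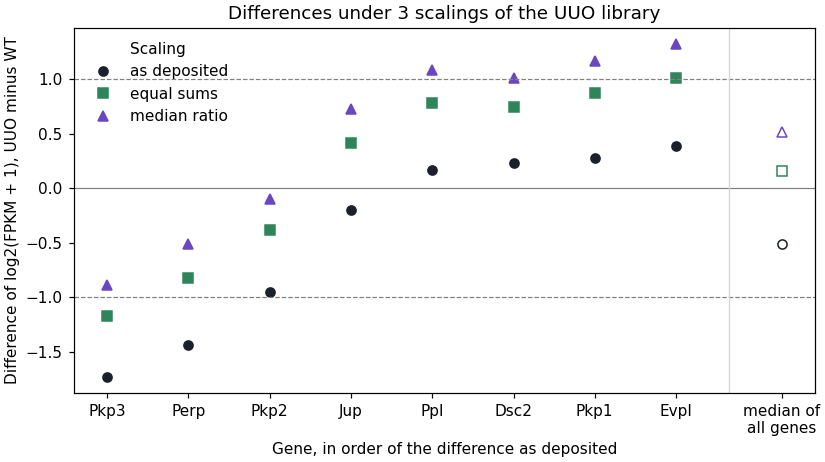
Difference of log2(FPKM + 1), UUO minus WT, for the 8 plaque genes with the UUO library as deposited (circles), rescaled to equal sums (squares) or by the median ratio (triangles). Open symbols give the median of all gene IDs with an FPKM of at least 1 in either library, and dashed lines mark 2-fold. Pkp3, Perp and Pkp2 lie below 0 in each, and the order of the genes is nearly that of the deposited values.

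None of the 8 genes was alone at its locus. Together their loci held 25 further entries, all of a noncoding RNA database, of which 11 were above 0 in WT and 17 in UUO urine. The highest of them had an FPKM of 3.55, in WT urine at the Pkp3 locus. The gene entry held 87.1% to 100% of the FPKM of its locus in WT and 84.6% to 98.2% in UUO urine, with the lowest share at Pkp3 in both libraries. When FPKM was summed over the locus, Pkp3 was at 27.5 in WT and 7.75 in UUO urine, and Perp at 132 and 49.3, so that both kept their direction and their side of 2-fold.

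Outside these loci, but within 20000 bp, 3 assembled features were listed, 1 each near Perp, Pkp3 and Dsc2. None had a WT value above 0, which also held for 87.2% of the 6139 assembled features of the table. The one near Pkp3, XLOC_001744 (chromosome 1, 220803600 to 220803848, 2279 bp from the gene), had an FPKM of 37.2 in UUO urine. That is above the 6.56 of Pkp3 itself, but the feature spans only 248 bp, where FPKM depends strongly on the length correction. This feature was singled out after its value was seen.

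The rest of the desmosome and envelope genes gave a sparser picture. Of the other desmosome genes, Dsc3, Dsg3 and Dsg4, cadherins of stratified epithelia and hair, had a value. Dsg3 and Dsg4 were listed at 0 in both libraries, and Dsc3 at 0 in WT with an FPKM of 0.104 in UUO urine. Of the 13 cornified envelope genes with a value, 6 were listed at 0 in both libraries and 5 reached an FPKM of 1. Of these 5, 2 were higher and 3 lower in UUO urine, against 25.7% and 36.5% of all gene IDs. Only 1 of them reached an FPKM of 1 in both libraries. A gene that reaches it in 1 library alone had to be higher there, so these directions were set by the limit. Sprr1a, a small proline-rich precursor that is cross-linked into the envelope, was by far the highest, at 291 FPKM in WT against 88.9 in UUO urine, a log2 difference of -1.70. Sbsn (suprabasin) was at 5.72 in WT and listed at 0 in UUO urine. The cross-linking enzyme Tgm1 was listed at 0 in WT and at 5.57 in UUO urine, while its relative Tgm3 was at 3.81 and 0.0393. Tgm1 and Tgm3 were picked out once their values were known.

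The neighbouring junction systems were set beside the plaque genes without a test, since none was possible. A gene that passes the FPKM limit through UUO urine alone had to be higher there, so the lists are given over genes with an FPKM of at least 1 in both libraries, a limit that all 8 members pass and that was set once values were known. By it 7218 gene IDs were left, of which 506 were 2-fold higher and 3089 lower in UUO urine. Their median log2 difference was -0.81. Of 10 adherens junction genes, 2 were 2-fold higher and 1 lower in UUO urine, with a median of 0.35. Ctnnb1 (beta-catenin, the close relative of plakoglobin) stood at 149 FPKM in WT against 181 in UUO urine, and Ctnna1 (alpha-catenin) at 72.5 against 65.1. Of 9 tight junction genes, 1 was higher and 0 lower, with a median of 0.08, and the scaffold gene Tjp3 was at 41.5 in WT against 30.7 in UUO urine. Of 4 hemidesmosome genes, 2 were higher and 0 lower, with a median of 0.76. The plakin Plec, which ties keratin to hemidesmosomes, stood at 96.7 against 133, and the laminin receptor subunit Itga6 at 10.9 against 22.8. The plaque genes had a median of -0.02, and whether the lists differ from it was not tested. With the limit in either library instead, the medians were 0.67, 0.44 and 0.76, and 5 of the 16 tight junction genes with a value were listed at 0 in WT alone.

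The keratins that desmosomes anchor were abundant in both libraries. Of 9 with an FPKM of at least 1 in both, 3 were higher and 2 lower in UUO urine, with a median log2 difference of 0.63. By the same limit, 506 of 7218 gene IDs were higher and 3089 lower. Krt8, the main type II keratin of simple epithelia, reached 578 FPKM in WT against 748 in UUO urine, and Krt19 reached 357 against 752. The basal keratins Krt5 and Krt17, picked out once their values were known, were listed at 0 in WT and at 51.8 and 24.2 in UUO urine. A listed 0 can be a failed estimate, and Krt14 was above 0 in WT urine, at 14.2, with a log2 difference of 1.63. The 2 lower keratins were Krt80 (227 in WT, 58.4 in UUO urine) and Krt20 (26.4 and 12.5). Krt14, Krt80 and Krt20 were also named after their values were seen.

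Of the 9 regulators of desmosome genes that reached an FPKM of 1, 1 was higher and 4 lower in UUO urine. Their median was -0.74, which turned to 0.42 by the median ratio. All 9 reached 1 in both libraries as deposited. By that limit 506 of 7218 gene IDs were higher and 3089 lower, with a median of -0.81, so the regulators stood near the general share. Grhl2, a transcription factor of epithelial junction genes, was at 74.8 FPKM in WT against 7.57 in UUO urine. The splicing factor gene Esrp2 was at 49.3 and 24.0. Tp63, which encodes p63 and was chosen after its values were seen, was at 1.92 in WT and 14.9 in UUO urine, opposite in direction to Perp.

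**Figure D4:**
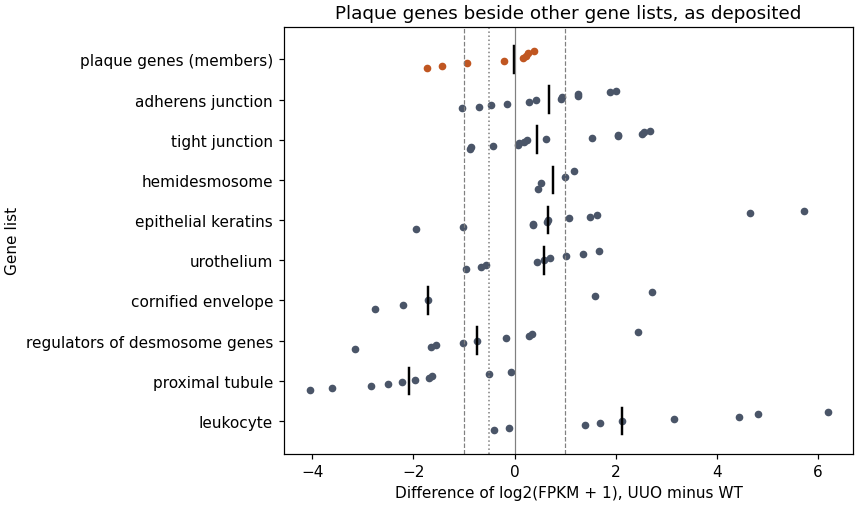
Difference of log2(FPKM + 1), UUO minus WT, as deposited, for each gene with an FPKM of at least 1 in either library in 10 gene lists (points) and the median of each list (black bars). Dashed lines mark 2-fold and the dotted line the median of all gene IDs, -0.51. The plaque genes (orange) lie between -1.72 and 0.39, and all 8 reach an FPKM of 1 in both libraries. Genes of other lists that reach it in 1 library alone had to be higher in that library, so the spreads are not comparable.

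Markers of the cells that urine can hold were read beside these values. All 9 urothelium genes with a value reached an FPKM of 1, with sums of 1020 in WT against 1363 in UUO urine. By the 2-fold limit 3 of the 9 were higher in UUO urine and 0 lower, against 25.7% and 36.5% of all gene IDs. All 9 reached an FPKM of 1 in both libraries, and by that limit 506 of 7218 gene IDs were higher and 3089 lower. Upk3a and Upk1a, of the uroplakin plaque, were at 312 and 170 in WT and at 466 and 277 in UUO urine. Not all genes of the list went that way. Upk1b (216 in WT, 136 in UUO urine), Foxa1 (50.0 and 25.1) and Gata3 (28.5 and 19.0), picked out once their values were known, were lower in UUO urine. Of the 5 epidermis genes with a value, Krt1, Krt2 and Casp14 were listed at 0 in both libraries, and the list summed to 0 in WT and 1.24 in UUO urine. Krt77, at 1.24 in UUO urine, was the only one to reach 1, and Krt10 was at 0.00015. Of the 13 symbols of that list no others had a value here, and a listed 0 can be a failed estimate, so the part of epidermal RNA was not tested.

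Of 10 proximal tubule genes 8 were 2-fold lower in UUO urine and 0 higher, against the 36.5% of all gene IDs that were lower. Those that reach an FPKM of 1 in WT urine alone had to be lower in UUO urine. Of the 7 with an FPKM of at least 1 in both libraries, 5 were lower and 0 higher. By that limit 3089 of 7218 gene IDs were lower and 506 higher. The FPKM of the 10 genes summed to 366 in WT against 131 in UUO urine. Gatm and Fbp1 were at 119 and 76.9 in WT and at 36.0 and 53.6 in UUO urine, while Aqp1, singled out after its values were seen, was at 26.7 and 25.2. Loop and distal tubule genes summed to 68.7 and 91.1, with Umod at 30.1 and 26.3 and Calb1 at 12.6 and 35.6. Collecting duct genes summed to 262 and 282, with Aqp3 at 85.1 and 121 and Atp6v1b1 at 90.1 and 30.7. That list includes Slc4a1, picked out once its values were known, at 0.976 in WT and 70.3 in UUO urine. Slc4a1 is also on the red cell list and enters both sums, and its rise is larger than that of the collecting duct sum. Leukocyte genes summed to 79.6 and 226, with S100a9 listed at 0 in WT and at 71.7 in UUO urine and Cd74 at 70.0 and 64.8. Red cell genes summed to 3208 in WT and 88944 in UUO urine, with Hbb at 877 and 54777 and Hba-a1 at 1576 and 22399. Per the study's methods the urine was spun both before freezing and after thawing, a step that can remove cells, and whether the RNA came from cells was not measured. The part of cell make-up in the differences of Perp and Pkp3 was not tested, and fewer cells of a type cannot be told apart from less RNA per cell.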

How the data were processed

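RNA of rat urine was sequenced in 1 library per group. Per the labels, the submitters' processing notes name Bowtie2 2.0.6, TopHat2 2.0.9, Cufflinks 2.1.1, Cuffdiff 2.1.1 and the rn5 build. The study's methods describe removal of ribosomal RNA and a strand-specific kit for kidney RNA, and filtering and alignment of reads for kidney and urine without distinction. The deposited values are FPKM per feature and library, made by the authors, and the total that entered the scaling is not stated. Columns with the authors' own fold changes, test statistics and p-values were not used.

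Symbols came from a RefSeq table of GRCr8, which matched 16329 of 16484 number-only gene IDs, and none of its coordinates was used for genes. Differences were computed as log2(FPKM + 1), UUO minus WT, and counted at 2-fold or more among gene IDs that reached FPKM 1 in either library. Lists were described by counts and medians, with no test, because each group had 1 library. The normalising totals were fitted from the FPKM of assembled features that share their locus with no other, spanning 400 to 1200 bp. Within 0.1 of a whole number of fragments were 97.4% of 153 values in WT and 99.7% of 3511 in UUO urine. The fit and the counting were tested on simulated data. Transcript lengths were not used here, so intervals are given for 1000 usable bases (effective length), and those of ratios rest on a normal approximation of the log ratio with 4 Poisson numbers.

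All members are named, and of each other list the 2 genes with the highest FPKM in either library, except that the values of 1 tight junction gene are not reported here. The members and lists were chosen with earlier results of these data known. Alternatives were other pseudocounts, filters, fold limits, scalings and FPKM summed over a locus. Python 3.11.15, numpy 2.4.6, pandas 2.3.3, scipy 1.17.1 and matplotlib 3.10.9 were used.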

Additional observations from a re-analysis of the deposited data

How the results depend on the processing

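No paired analysis was possible because the groups hold 1 library apiece. A count within 1.5 times of its value in the report, and a log2 difference on the same side of 0 and of 1, were taken as unchanged. By these limits 54 of 79 recomputed member differences were unchanged, and 10 changed sign. All changes came from a scaling of the UUO library, except that Pkp2 passed 2-fold, at -1.03, with a pseudocount of 0.1. Dsc2 was under the filter of FPKM 5 and has no value there. Ratios between members within a library do not depend on scaling.

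Among the members, 0 were higher and 2 lower as deposited, and 0 were lower at a 4-fold limit. After equal sums 1 was higher and 1 lower, against 35.0% and 20.8% of all gene IDs, and by the median ratio 4 and 0. The member median was 0.58 after equal sums and 0.87 by the median ratio. Matching the 75th percentile of features above 0 in either library made 8 members lower, with a median of -3.03, and 93.7% of all gene IDs were lower too. In that set 66.4% of WT and 2.77% of UUO values are 0. Another scaling, over features above 0 in the same library, was added after seeing the data. It made 7 members higher and 0 lower, with a median of 2.53, and 79.2% of all gene IDs were higher too.

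Over all gene IDs, 2534 were higher and 3600 lower. With a pseudocount of 10 they were 370 and 1770, at a 4-fold limit 1059 and 1185, by the median ratio 4338 and 1587, by the first 75th percentile 219 and 7510, and by the second 9252 and 420. After equal sums 2157 were lower. With a minimum FPKM of 5, 1041 were higher, with FPKM of at least 1 in both libraries, also added after seeing the data, 506, and with FPKM summed over the locus 3972.

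By the first 75th percentile the sign changed for Dsc2 (-1.52), Evpl (-2.74), Pkp1 (-2.43), Ppl (-2.84) and the medians of the adherens junction (-2.27), collecting duct (-2.71), keratin (-2.57), hemidesmosome (-1.67), loop and distal tubule (-2.67), tight junction (-2.32) and urothelium (-2.65) lists. By the second it changed for Jup (2.44), Perp (1.21), Pkp2 (1.57), Pkp3 (0.77) and the medians of the cornified envelope (1.51), proximal tubule (0.013) and regulator (1.81) lists. By the median ratio it changed for Jup (0.72) and the medians of the cornified envelope (0.23) and regulator (0.42) lists, and after equal sums for Jup (0.42). With FPKM of at least 1 in both libraries the medians of the leukocyte (-0.11), collecting duct (-0.33) and loop and distal tubule (-0.03) lists turned below 0, and the last 2 also at a minimum FPKM of 5 (-0.15 and -0.03).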
